A study of Mus musculus with 15 samples.

Results

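The genes described here are those whose symbol begins Psma to Psmg followed by a number and that held 100 or more reads summed over 15 RNA libraries of mouse fat cells. The rule found 48 genes among the 24421 symbols counted. The name alone matches 50 symbols. The other 2 were Psma8, an alpha subunit known from testis, with 0 counts, and Psmb11, the catalytic subunit of thymic epithelium, with 9. The members nearest to the limit were Psme2b with 320 counts and Psmg4 with 1067. All 48 passed the filter on low counts, which left 14421 genes tested. The members comprised 7 alpha and 7 constitutive beta subunits of the 20S particle, 3 beta subunits of the immunoproteasome, 17 subunits of the 19S particle, 3 chaperones of 19S assembly, 4 of 20S assembly, and 6 activators or inhibitors. The last member was Psmc3ip (Hop2), a partner in meiotic recombination that shares the name but is no proteasome subunit.

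The proteasome is the main protease of the cytosol and nucleus for proteins tagged with ubiquitin. Its 20S core is a barrel in which rings of alpha subunits form the gate and rings of beta subunits hold the active sites. The 19S cap binds the ubiquitin chain, removes it, unfolds the protein with a ring of ATPases and feeds it into the core. Interferon-inducible beta subunits can replace the constitutive catalytic ones to form the immunoproteasome, whose peptides supply MHC class I, and the PA28 and PA200 caps open the core without ubiquitin. Proteasome subunit genes are known to be raised together by the transcription factor Nfe2l1 when proteasome activity is short, and in brown fat this factor is known to sustain proteasome activity during cold exposure.

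All groups came from MAP cells, immortalized progenitors of mouse fat cells, and were first differentiated into adipocytes. Differentiation used insulin, isobutylmethylxanthine and dexamethasone together with rosiglitazone for 2 days, then insulin with rosiglitazone for 2 more, so the vehicle and forskolin groups had met rosiglitazone as well. On day 7 to 8 the differentiated cells received vehicle, forskolin or rosiglitazone, treatments described in the labels as inducers of browning. Forskolin raises cAMP through adenylyl cyclase and was given for 4 hours (FSK4h), 1 day (FSK1D) or 3 days (FSK3D). Rosiglitazone activates PPARγ and was given for 3 days (Rosi3D). Each of the 5 groups had 3 libraries of ribosome-depleted total RNA. The labels name no separate cultures for the libraries of a group, so p-values measure the spread between libraries of 1 line, which may be technical. Not given in the sources used here were the doses of the browning treatments and the harvest time of the vehicle cells.

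The shallowest library, FSK3D S11, held 14056200 counts and the deepest, Rosi3D S13, 56282582, where S1 to S15 are running library numbers. Levels are CPM, counts relative to the TMM-scaled library size, given as mean ± SD with n = 3, and fold changes are log2 ± SE from edgeR's quasi-likelihood test, called at a Benjamini-Hochberg adjusted p under 0.05. The 7 adipocyte markers listed summed to between 5843 and 14795 CPM in every library, and 8 progenitor markers to between 379 and 946. Leukocyte markers (10 genes) summed to 11.6 CPM or less and endothelial markers (5 genes) to 9.23 or less. The share of Rn45s, the ribosomal RNA precursor, moved with the groups, from between 8.50% and 8.57% of counts in vehicle libraries to between 4.15% and 5.79% in FSK3D. Scaling mattered for FSK4h, whose mean TMM factor was 0.907 against 1.02 to 1.04 in the other groups. Scaling by library size alone shifted the median of all tested genes in FSK4h against vehicle from -0.03 to -0.23 on the log2 scale.

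The proteasome genes were expressed in all libraries at unlike levels. In vehicle, levels per length (RPKM, CPM divided by the gene's length in kilobases) of the 31 constitutive 20S and 19S subunits ran from 33.3 (Psma7) to 269 (Psmb4), with a median of 58.0. After Psmb4 came Psma6 with 149 and Psma1 with 116. Below the constitutive subunits lay the immunoproteasome genes, with 4.26 RPKM for Psmb8, 4.64 for Psmb9 and 10.3 for Psmb10. The 31 subunits together took 3206 CPM ± 19.8 (SD, n = 3) in vehicle, 3762 ± 53.0 in FSK4h and 3288 ± 64.2 in FSK1D, with 3013 ± 41.4 in FSK3D and 3156 ± 25.2 in Rosi3D. As a share of all counts, with no scaling, these were 0.332% ± 0.000889, 0.341% ± 0.00407, 0.334% ± 0.00492, 0.310% ± 0.000318 and 0.321% ± 0.00156. The sum was highest in FSK4h and lowest in FSK3D on both scales, but the step up in FSK4h was much smaller as a share of all counts. In bulk RNA such as this, fewer cells of a type and less RNA per cell cannot be told apart.

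**Figure D1:**
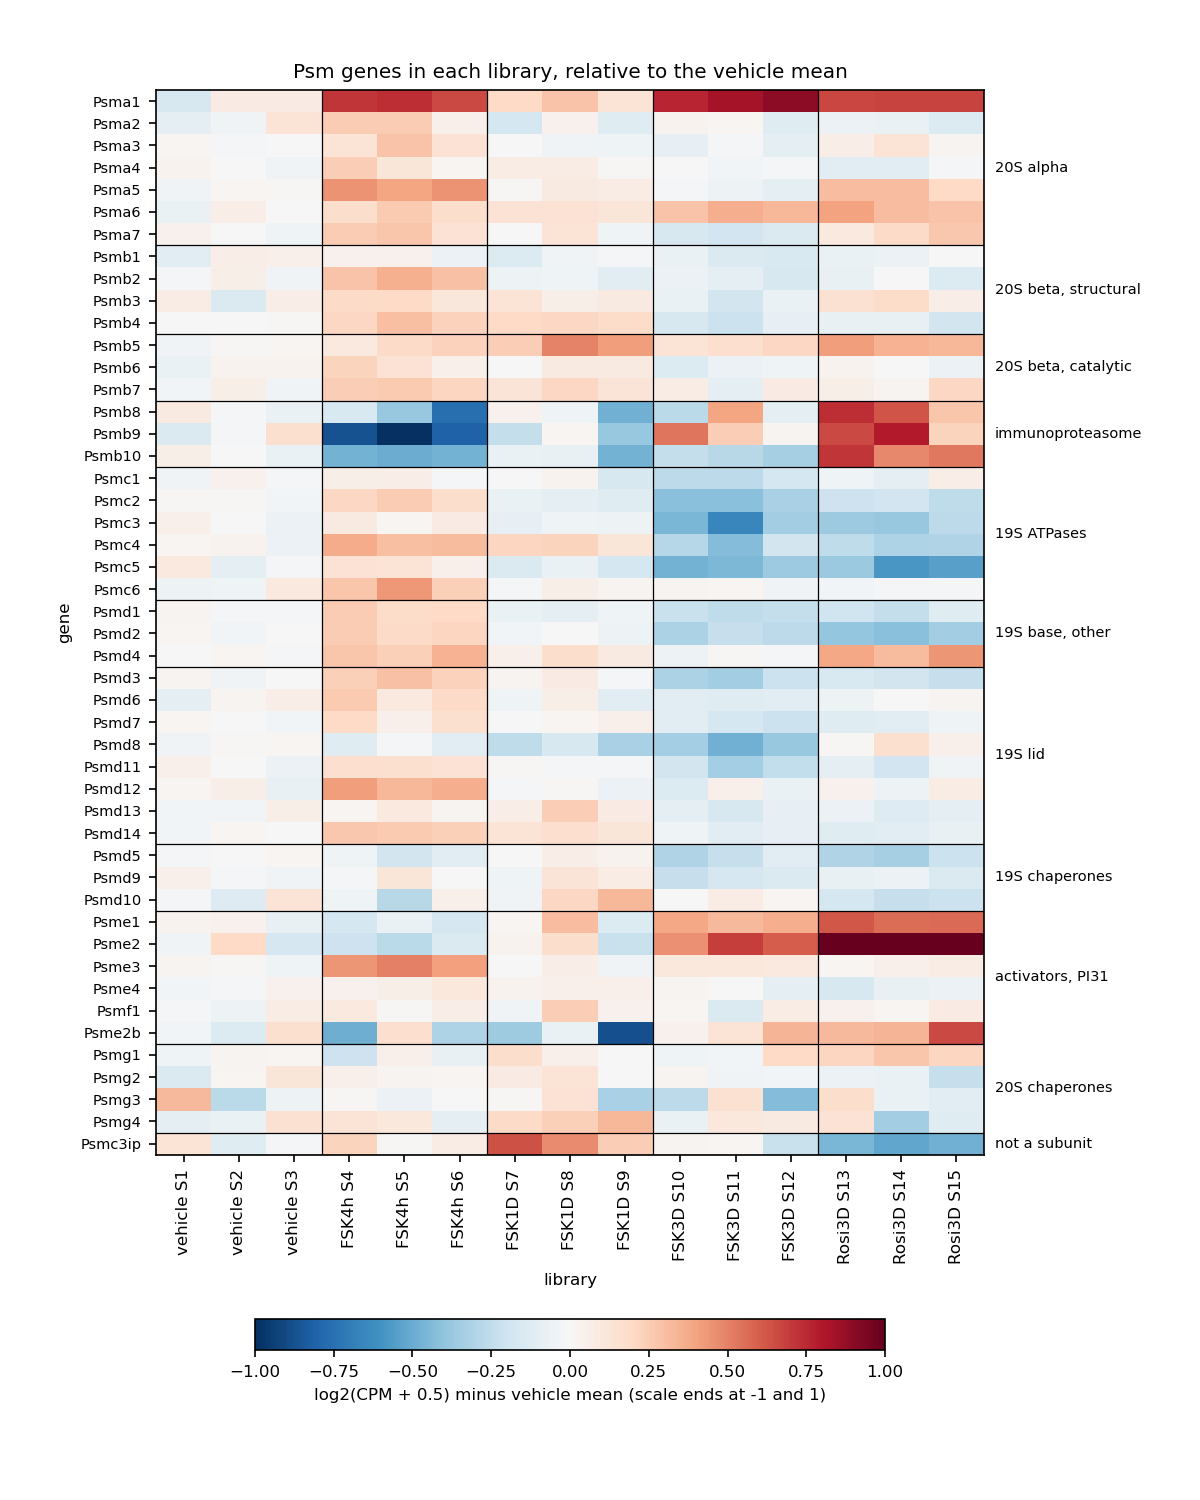
Each of the 48 genes (rows, grouped by role) in each of the 15 libraries (columns), coloured by log2(CPM + 0.5) minus the mean of the 3 vehicle libraries. With this TMM scaling the FSK4h columns are mostly red for the 20S and 19S genes (with library size alone 6 of 31 were called higher and 5 lower) and blue for the immunoproteasome, the FSK3D columns are mostly blue for the 19S genes, and Psma1 is red in every column after vehicle.

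After 4 hours of forskolin the immunoproteasome genes were lower than in vehicle, and with TMM scaling 25 of the 31 constitutive subunits were higher, while library size alone called 6 of these higher and none of them lower, and 5 of the other 6 subunits lower. Of the 48 members, 26 were called higher and 4 lower, against 28.4% of all tested genes called higher and 30.7% called lower (59.0% in either direction). The median member differed by 0.14 and the median tested gene by -0.03. The 25 constitutive subunits called higher by TMM (0 were lower) were 7 of 7 alpha, 3 of 4 structural beta, 3 of 3 catalytic beta, 3 of 6 ATPase, 3 of 3 other base and 6 of 8 lid genes. Most of these calls rested on the scaling. Over all members, library size alone gave 7 higher and 15 lower, beside 17.5% and 46.5% of all tested genes. The 7 that stayed higher on both scales were Psma1, Psma5, Psmb2, Psmc4, Psmc6, Psmd12 and Psme3, and the 4 called lower by TMM were lower on both.

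The changes in FSK4h were small apart from a few genes. The median size of a member's log2 difference was 0.19, against 0.34 over all tested genes, and 1 member passed 2-fold, Psmb9. Psma5, an alpha subunit, was at 54.4, 56.6 and 56.1 CPM in the vehicle libraries and at 76.3, 73.3 and 76.4 in FSK4h, a rise of 0.44 ± 0.053 (adjusted p = 9.92e-09). The groups did not overlap. Psmd12, a scaffold subunit of the lid, rose from 64.4 ± 3.03 to 83.3 ± 2.37 CPM (0.37 ± 0.055). Psmc4, an ATPase of the base, rose from 76.6 ± 2.76 to 96.4 ± 2.67 CPM (0.33 ± 0.055). Psmb4, a structural beta subunit, rose by 0.25 ± 0.044, and Psmd14, the deubiquitinase of the lid, by 0.26 ± 0.044. Neither Psmb4 nor Psmd14 was called with library size alone. Constitutive subunits not called in FSK4h were Psmb1, Psmc1, Psmc3, Psmc5, Psmd8 and Psmd13, with values from -0.08 (Psmd8) to 0.11 (Psmc5). Calls lost without 1 library were those of Psmb3, Psma2, Psma4, Psmd6 and Psmd7 among the structural genes. Psmd6 was lost without vehicle S1 (adjusted p = 0.0512) and Psmd7 without FSK4h S4 (0.0672). Psmb3 was lost without vehicle S2, FSK4h S4 or FSK4h S5, with an adjusted p of up to 0.182. Psma2 was lost without vehicle S1, vehicle S2, FSK4h S4 or FSK4h S5 (up to 0.107) and Psma4 without vehicle S2, vehicle S3 or FSK4h S4 (up to 0.244). The FSK4h and vehicle libraries overlapped for Psma2 and Psma4.

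After 1 day of forskolin fewer members were called. Against vehicle, 8 members were higher and 1 lower in FSK1D, where 19.5% of tested genes were called higher and 20.7% lower (40.2% in either direction). The member median was 0.03 and that of all tested genes -0.02. Against FSK4h, 21 members were lower and 8 higher in FSK1D, beside 28.9% of all genes called lower and 28.4% higher (57.3% in all). This split too turned with the scaling, to 8 lower and 16 higher with library size alone, where 18.8% of all tested genes were lower and 41.4% higher. Higher than in vehicle were Psmb5, Psma1, Psmb4, Psmc4, Psmb7, Psmd14, Psma6 and Psmc3ip. Psmc4 differed from vehicle by 0.19 ± 0.055 and Psmd14 by 0.14 ± 0.044. Psmb4 was at 255, 255 and 257 CPM in vehicle and at 294, 295 and 290 in FSK1D, a rise of 0.20 ± 0.044 with no overlap. Psmd8, a lid subunit, was the member called lower, at 81.3 ± 1.68 CPM in vehicle and 68.4 ± 3.96 in FSK1D (-0.25 ± 0.055, adjusted p = 0.000403).

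After 3 days of forskolin the 19S genes were lower than in vehicle. In FSK3D 16 members were called lower and 5 higher, with 27.0% and 25.9% of all tested genes called in those directions (52.9% in all). The member median was -0.08 and that of all tested genes 0.01. Of the 17 subunits of the 19S particle 11 fell and 0 rose, with a median of -0.24, while the 14 constitutive 20S subunits gave 3 higher, 2 lower and a median of -0.06. The falls included 5 of the 6 ATPases, which form the unfolding ring. Library size alone gave all 21 of these calls in the same direction. Adipocyte marker sums rose to between 12914 and 13006 CPM in FSK3D from between 7385 and 8521 in vehicle, and the part of this and of the Rn45s share in the 19S values was not tested.

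Psmc3, an ATPase, was at 111, 107 and 103 CPM in vehicle and at 77.6, 67.7 and 83.7 in FSK3D. The groups did not overlap, and the difference was -0.48 ± 0.057 (adjusted p = 1.16e-08). Psmc3 shares 215 of its 1635 exon bases with Slc39a13 on the other strand, a gene with 18807 counts against its own 42058. Reads there are uncertain without strand. Psmc5 was at 56.0, 49.2 and 51.9 CPM in vehicle and at 37.5, 38.2 and 40.5 in FSK3D, a fall with no overlap either (-0.43 ± 0.066). Psmc2 went from 127 ± 2.13 to 96.8 ± 3.77 CPM (-0.38 ± 0.046), Psmc4 from 76.6 ± 2.76 to 62.2 ± 5.35 (-0.29 ± 0.056) and Psmc1 from 76.0 ± 2.13 to 64.7 ± 2.26 (-0.23 ± 0.058). The ATPase that did not pass was Psmc6, at 90.6 ± 5.33 CPM in vehicle and 90.8 ± 2.30 in FSK3D. Among lid genes Psmd8 fell by 0.40 on the log2 scale, Psmd3 by 0.29, Psmd11 by 0.25 and Psmd7 by 0.17. In the base Psmd2, a scaffold that binds ubiquitin-like domains, fell from 330 ± 5.20 to 274 ± 8.37 CPM (-0.27 ± 0.041), and Psmd1, the other large scaffold, fell by 0.24 on the log2 scale. Psmd4, a ubiquitin receptor, was at 129 ± 1.50 and 128 ± 2.52 CPM and was not called. Of the 20S genes Psma7 (-0.17 ± 0.061) and Psmb4 (-0.15 ± 0.044) were lower. Psma7 was thereby the alpha subunit called against the direction of the others called in its ring, Psma1 and Psma6. Psma7 lost its call without vehicle S1, vehicle S2, FSK3D S10 or FSK3D S11 (adjusted p of up to 0.131), and Psmb4 without FSK3D S11.

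With TMM scaling the 17 subunits of the 19S particle were all lower after 3 days of forskolin than after 4 hours, and with library size alone 14 were lower and 0 higher. In FSK3D against FSK4h 30 members were lower and 6 higher, with 33.5% of all tested genes called lower and 35.0% higher (68.5% in either direction). With TMM the 19S subunits fell by 0.26 on the log2 scale for Psmc1 to 0.63 for Psmc4, apart from Psmd13 with -0.16. Over all members library size alone gave 19 lower and 10 higher, beside 24.4% and 45.5% of all tested genes. In FSK3D against FSK1D 22 members were lower and 6 higher (25.8% and 25.2% of all tested genes, 51.0% in all), among them 14 of the 17 lower and 0 higher. These comparisons and those with vehicle share their FSK4h, FSK1D and FSK3D libraries.

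Rosiglitazone for 3 days gave a similar number of rises and falls. In Rosi3D 12 members were higher and 11 lower than in vehicle, while 28.6% of all tested genes were called higher and 32.0% lower (60.6% in either direction). The member median was -0.02 and that of all tested genes -0.01. Of the 19S subunits 7 were lower and 1 higher, and of the constitutive 20S subunits 5 were higher and 1 lower. The 19S count was 10 lower and 1 higher with library size alone. Adipocyte marker sums in Rosi3D were between 13932 and 14795 CPM and progenitor marker sums between 379 and 419, against 7385 to 8521 and 721 to 766 in vehicle, and their part in these values was not tested. Psmc5 fell to 40.3, 34.9 and 35.9 CPM, all under the vehicle libraries (-0.49 ± 0.065, adjusted p = 4.43e-08). Psmd2 was at 335, 325 and 331 CPM in vehicle and at 252, 247 and 259 in Rosi3D, with no overlap (-0.39 ± 0.041). Psmc3 fell by 0.33 on the log2 scale, Psmc4 by 0.29, Psmc2 by 0.22, and Psmd1 and Psmd3 by 0.19 each. Psmd4 went against its neighbours in the base. It was at 129, 131 and 128 CPM in vehicle and at 169, 160 and 175 in Rosi3D, a rise of 0.38 ± 0.047 (adjusted p = 1.03e-08) with no overlap. Psmb4 was called lower at -0.11 ± 0.044, a call that was lost on leaving out any 1 of the 6 libraries compared, with an adjusted p of up to 0.266.

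**Figure D2:**
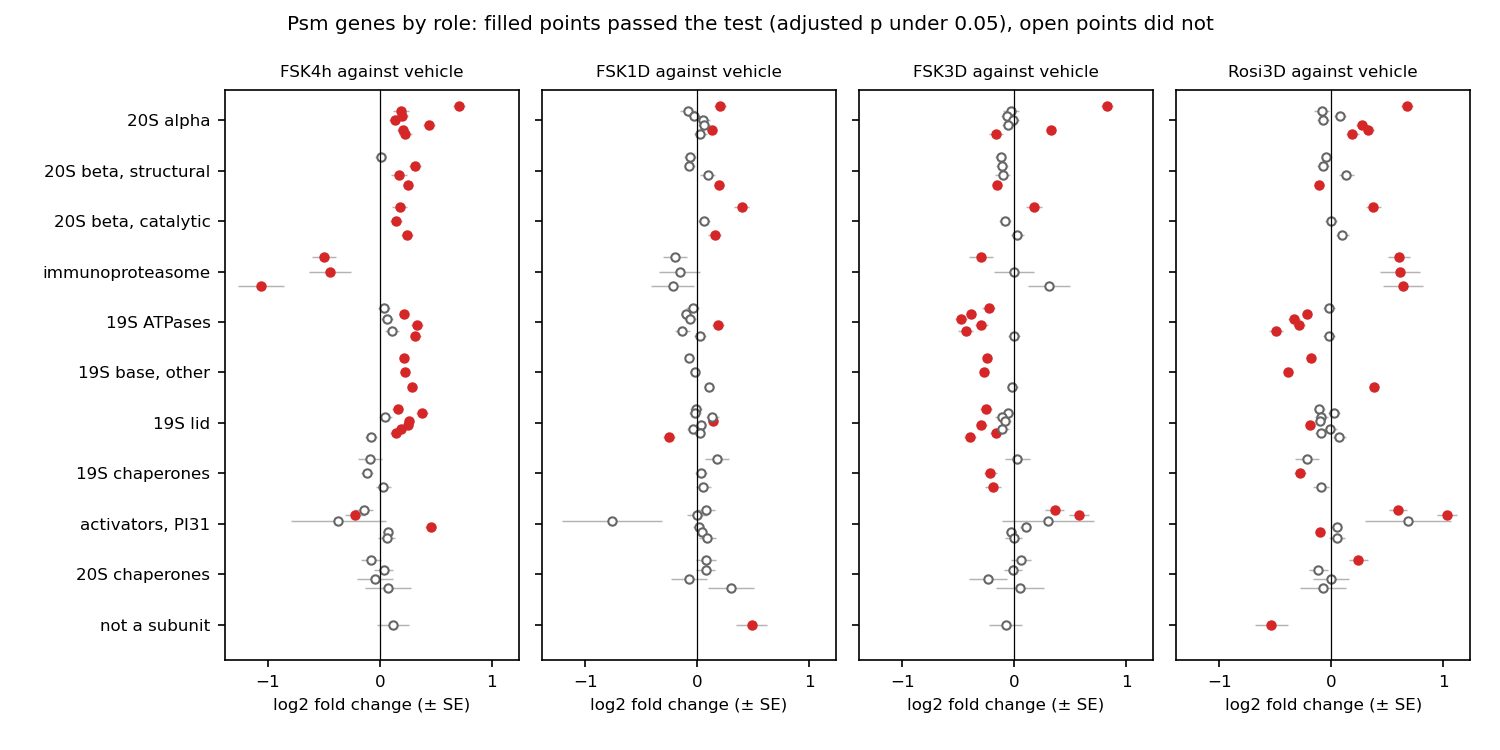
The log2 fold change against vehicle (x axis, ± SE) of each of the 48 genes in the 4 treatments, by role (y axis), with filled points for calls at an adjusted p under 0.05. With TMM scaling the 19S points lie mostly right of 0 in FSK4h (with library size alone 3 of 17 were called higher and 4 lower) and mostly left of 0 in FSK3D and Rosi3D, and the immunoproteasome points lie left of 0 in FSK4h and right of 0 in Rosi3D.

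The 3-day treatments were also set against each other. In FSK3D against Rosi3D 15 members were lower and 3 higher, with 20.7% and 22.5% of all tested genes called in those directions (43.1% in all). Psmb10 had the largest difference among them (-0.90 ± 0.11). Psmd8 was at 61.6 ± 3.16 CPM in FSK3D and 85.6 ± 4.57 in Rosi3D (-0.47 ± 0.056), Psmd4 differed by -0.40 ± 0.047, Psma7 by -0.35 ± 0.061 and Psma5 by -0.33 ± 0.054. Higher in FSK3D were Psma1, Psmd2 and Psmc3ip. The 19S subunits gave 6 lower and 1 higher, so that Psmc3 and Psmc5, the ATPases that fell most against vehicle in FSK3D, differed between the 3-day groups by -0.14 ± 0.057 (adjusted p = 0.0471) and 0.06 ± 0.067 (adjusted p = 0.508). The Psmc3 call was lost without FSK3D S10, FSK3D S11, Rosi3D S13 or Rosi3D S15 (adjusted p of up to 0.339). Of all 18 calls in this comparison, 9 were kept in each of the 6 fits that left out 1 library, and without Rosi3D S13, the deepest library, 9 members were lower and 1 higher.

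The genes of the alpha ring did not move together. Psma1, an alpha subunit on chromosome 7 (7:114264606-114276118, minus strand, GRCm38), was at 129, 153 and 153 CPM in vehicle. It was at 238, 241 and 229 CPM in FSK4h, at 166, 176 and 159 in FSK1D, at 246, 258 and 269 in FSK3D and at 231, 232 and 232 in Rosi3D. Every treated library exceeded every vehicle library. The differences from vehicle were 0.70 ± 0.053 (adjusted p = 1.82e-13), 0.21 ± 0.053 (0.00208), 0.83 ± 0.053 (5.97e-15) and 0.67 ± 0.053 (4.26e-13), all kept in each fit that left out 1 library and with library size alone. FSK1D was lower than FSK4h by 0.50 on the log2 scale and FSK3D higher than FSK1D by 0.62. As a share of the counts of the 7 alpha genes, Psma1 took 24.9% ± 1.52 in vehicle, 31.6% ± 0.140 in FSK4h and 26.9% ± 0.565 in FSK1D, with 35.8% ± 1.10 in FSK3D and 32.0% ± 0.342 in Rosi3D. These shares do not depend on the scaling. No exon of Psma1 overlapped an exon of another gene of the table.

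Psma6, on chromosome 12, was the other alpha gene called higher in all 4 treatments. Its values were 142, 156 and 148 CPM in vehicle and 168, 178 and 167 in FSK4h. They were 164, 165 and 161 in FSK1D, 181, 191 and 187 in FSK3D and 196, 184 and 181 in Rosi3D, with no treated library under a vehicle library. The differences were 0.20 ± 0.046, 0.13 ± 0.046, 0.33 ± 0.046 and 0.33 ± 0.046. That in FSK1D was lost without vehicle S1 (adjusted p = 0.0663), and with library size alone those in FSK4h and FSK1D were not called. Of the other alpha genes Psma5 rose in FSK4h and in Rosi3D (0.28 ± 0.053), and Psma7 in FSK4h (0.23 ± 0.060, not called with library size alone) and Rosi3D (0.19 ± 0.060). Psma2, Psma3 and Psma4 rose in FSK4h alone, by 0.19, 0.19 and 0.14 with TMM scaling, and with library size alone none of these was called.

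The summed CPM of the 17 subunits of the 19S particle divided by that of the 14 constitutive 20S subunits was 1.61 ± 0.0526 in vehicle (SD, n = 3), 1.53 ± 0.0396 in FSK4h and 1.49 ± 0.0101 in FSK1D, with 1.27 ± 0.00767 in FSK3D and 1.32 ± 0.0400 in Rosi3D. The ratio within a library does not depend on the scaling. The vehicle libraries lay between 1.57 and 1.67 and the 3-day libraries of both treatments between 1.26 and 1.36, with no overlap. Psma1 and Psma6 carried part of this. In a ratio chosen after their values were seen, which left both out, the means were 2.11 ± 0.0418, 2.10 ± 0.0525, 1.99 ± 0.0212, 1.91 ± 0.0169 and 1.90 ± 0.0602, and the 3-day libraries (1.85 to 1.97) still lay below those of vehicle (2.09 to 2.16). With 3 libraries a group an exact permutation test cannot reach 0.05, and none was run.

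**Figure D3:**
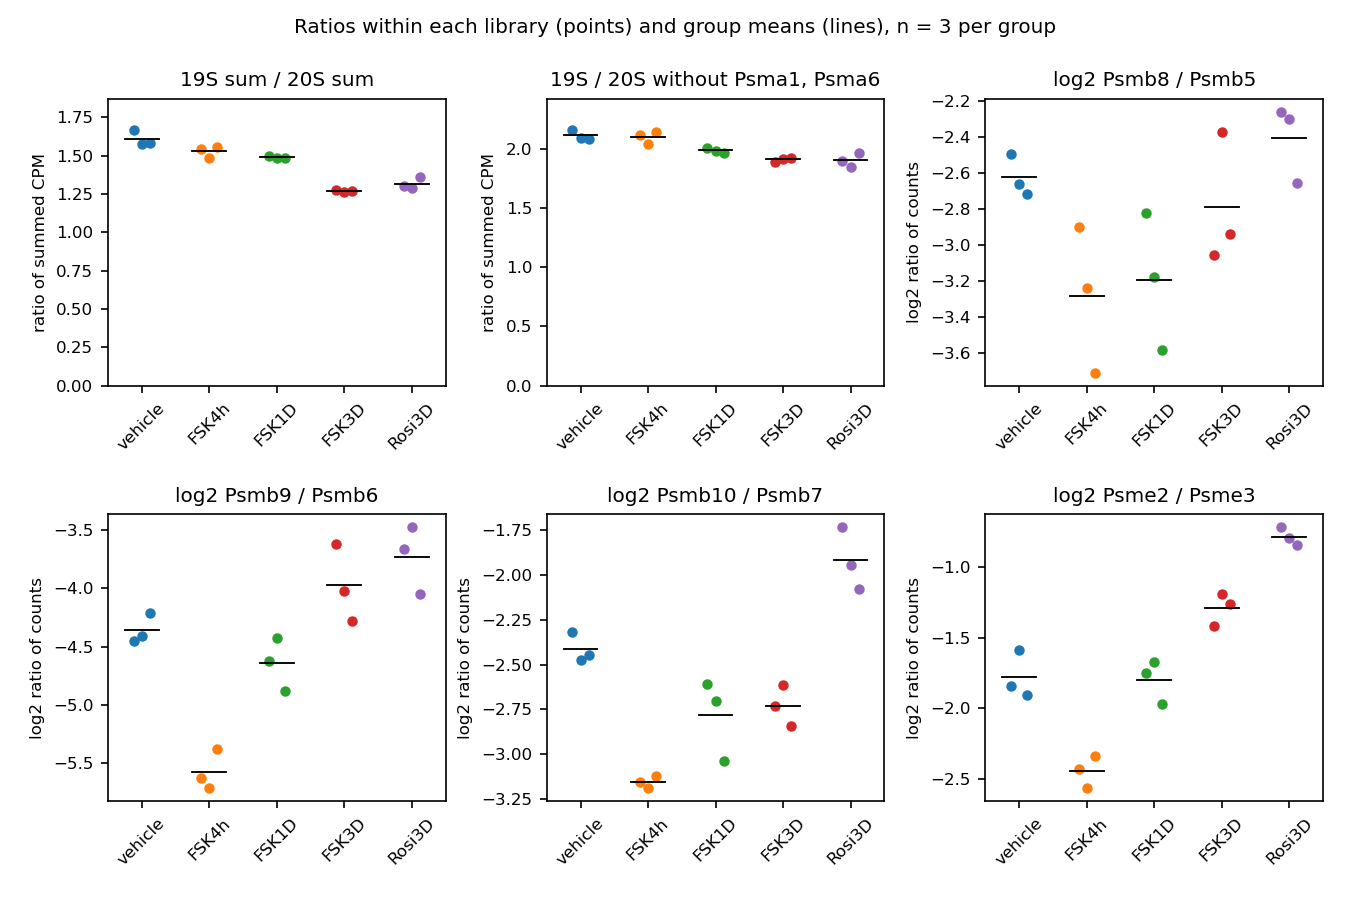
Ratios within each of the 15 libraries (points) with group means (lines). The upper left panels give summed 19S over summed 20S CPM, with all genes (1.26 to 1.67) and without Psma1 and Psma6, and the others the log2 ratio of counts of an immunoproteasome gene to its constitutive counterpart and of Psme2 to Psme3.

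RefSeq promoter windows (GRCm38.p6, 250 bases before to 50 after the start site) were found for 41 of the 48 members. 4 motifs were searched on both strands. The antioxidant response core TGACNNNGC, the kind of site that Nfe2l1 and Nfe2l2 bind with small Maf proteins, was found for 6 of 41 members (14.6%). The share was 14% of all genes with a window and 16.9% of tested ones. The interferon-response core, GAAA and GAAA parted by any 2 bases, was found for 5 of 41 members (12.2%). The share was 3.99% of all genes with a window and 3.62% of tested ones. These 5 members were Psmb3, Psmd4, Psmd9, Psme1 and Psmg4, and the windows of Psmb8, Psmb9, Psmb10 and Psme2 held no such core. The NF-Y box CCAAT was found for 14 of 41 (34.1%), against 41.1% of all genes and 42.6% of tested ones. The cAMP response element TGACGTCA was found for 0 of 41, against 2.03% of all genes and 3.46% of tested ones. The 0 says only that these letters are not in these windows. A match is a description, not a site.

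The windows of 3 members on which the results turn are shown from 250 bases before the start site to the base before it, 5′ to 3′ on the gene's strand. Psma1 (chr7:114276117-114276366, minus strand) is shown as the constitutive gene with the largest rise, with its 2 matches to the NF-Y box in capitals, the first on the other strand. Psmb5 (chr14:54617996-54618245, minus strand) and Psmb6 (chr11:70525107-70525356, plus strand) are constitutive catalytic genes with an antioxidant response core, which is in capitals, and no window was found for the other one, Psmb7. It lies 47 to 39 bases before the start of Psmb5 and 9 to 1 before that of Psmb6.
Psma1: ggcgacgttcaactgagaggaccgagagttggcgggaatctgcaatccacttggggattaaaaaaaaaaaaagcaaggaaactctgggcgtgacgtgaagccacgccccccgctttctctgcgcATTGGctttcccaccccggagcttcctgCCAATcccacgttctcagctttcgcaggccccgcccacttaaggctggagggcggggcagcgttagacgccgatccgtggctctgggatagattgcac
Psmb5: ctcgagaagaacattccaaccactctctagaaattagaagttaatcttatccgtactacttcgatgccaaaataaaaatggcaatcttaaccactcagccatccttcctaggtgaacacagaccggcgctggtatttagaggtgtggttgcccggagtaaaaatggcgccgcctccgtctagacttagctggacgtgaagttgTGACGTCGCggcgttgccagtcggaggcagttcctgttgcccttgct
Psmb6: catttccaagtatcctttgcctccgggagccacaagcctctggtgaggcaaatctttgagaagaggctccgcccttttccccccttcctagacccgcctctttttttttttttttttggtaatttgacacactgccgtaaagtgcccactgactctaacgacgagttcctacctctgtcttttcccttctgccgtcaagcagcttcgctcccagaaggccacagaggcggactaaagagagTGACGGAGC

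The levels of the constitutive catalytic genes are given next, and a link between the core and these levels was not tested. Psmb5, the chymotrypsin-like active site, on chromosome 14, was at 31.3, 32.3 and 32.6 CPM in vehicle and at 34.4, 36.6 and 37.7 in FSK4h. It was at 38.1, 45.5 and 43.1 in FSK1D, at 35.3, 36.2 and 37.1 in FSK3D and at 43.1, 41.0 and 40.5 in Rosi3D, so every treated library lay above every vehicle library. The rises were 0.18 ± 0.068 (adjusted p = 0.0262), 0.40 ± 0.068 (1.03e-05), 0.18 ± 0.069 (0.0314) and 0.38 ± 0.067 (1.11e-05). The call in FSK4h was lost without vehicle S1 or FSK4h S6 (adjusted p of up to 0.0728), and with library size alone the value there turned to -0.017. The call in FSK3D was lost without vehicle S1 or FSK3D S12. Psmb6, the caspase-like active site, was at 76.5 ± 3.08 CPM in vehicle and was called in FSK4h alone (0.15 ± 0.054, adjusted p = 0.0199), where it turned to -0.047 with library size alone and lost its call without vehicle S1 or FSK4h S4. Psmb7, the trypsin-like active site, was at 69.7 ± 2.64 CPM in vehicle and rose in FSK4h (0.24 ± 0.056) and FSK1D (0.16 ± 0.056). The FSK1D call of Psmb7 was lost without vehicle S1, vehicle S3 or FSK1D S8, and with library size alone neither was called. Psmb7 shares 405 of its 969 exon bases with Nek6 on the other strand, a gene with 37631 counts against its own 32598. Its reads are uncertain without strand. Rosi3D differed from vehicle by -0.01 ± 0.054 in Psmb6 and by 0.10 ± 0.056 in Psmb7, neither called.

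The immunoproteasome genes were called lower in FSK4h and higher in Rosi3D. Psmb9, the counterpart of Psmb6 (17:34181987-34187764, minus strand), was at 3.33, 3.68 and 4.22 CPM in vehicle, at 1.81, 1.62 and 1.91 in FSK4h and at 6.19, 6.83 and 4.44 in Rosi3D. The 3 groups did not overlap. The differences from vehicle were -1.06 ± 0.20 (adjusted p = 3.4e-05) and 0.64 ± 0.18 (0.00232). Psmb9 is thinly covered, with 40 to 352 counts a library, and 212 of its 806 exon bases overlap Tap1 on the other strand. Tap1 carries peptides into the endoplasmic reticulum, fell by 1.32 on the log2 scale in FSK4h, and had 17330 counts in all against 1688 for Psmb9. Strand use in counting, not given in the sources used here, decides this, so reads of the pair cannot be told apart there.

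Psmb10, the counterpart of Psmb7 on chromosome 8, was at 13.7, 13.1 and 12.5 CPM in vehicle, at 9.29, 9.14 and 9.29 in FSK4h and at 21.8, 18.4 and 19.1 in Rosi3D. All FSK4h libraries were below and all Rosi3D libraries above vehicle (-0.50 ± 0.11, adjusted p = 0.000166, and 0.60 ± 0.10, adjusted p = 4.45e-06). Psmb8, the counterpart of Psmb5, lay beside Psmb9 on chromosome 17, at 5.56, 5.12 and 4.95 CPM in vehicle, 4.62, 3.88 and 2.88 in FSK4h and 8.99, 8.32 and 6.42 in Rosi3D. The fall in FSK4h (-0.45 ± 0.19, adjusted p = 0.0418) was lost without any 1 of 5 of the 6 libraries, all but FSK4h S4, with an adjusted p of up to 0.258. The rise in Rosi3D was 0.61 ± 0.18 (adjusted p = 0.00329). The 3 falls in FSK4h and the 3 rises in Rosi3D were all called with library size alone, while with RLE scaling the fall of Psmb8 was not (-0.42, adjusted p = 0.0531).

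None of the 3 genes was called in FSK1D, with values of -0.22 (Psmb9), -0.20 (Psmb10) and -0.16 (Psmb8). In FSK3D Psmb10 was called lower (-0.30 ± 0.11, adjusted p = 0.022), a call lost without vehicle S1, vehicle S2, FSK3D S11 or FSK3D S12, while Psmb9 was at 4.66 ± 0.913 CPM and Psmb8 at 5.36 ± 1.45, neither called. Between the 3-day treatments Psmb10 (-0.90 ± 0.11) and Psmb8 (-0.61 ± 0.18) were lower in FSK3D. The Psmb8 call was lost without FSK3D S10 or Rosi3D S13 (adjusted p of up to 0.0638).

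Relative to their constitutive counterparts, which needs no scaling between libraries, Psmb10 gave 18.8 ± 1.10 counts per 100 of Psmb7 in vehicle (SD, n = 3), 11.2 ± 0.258 in FSK4h and 14.6 ± 2.20 in FSK1D, with 15.1 ± 1.22 in FSK3D and 26.6 ± 3.21 in Rosi3D. Psmb9 gave 4.89 ± 0.439 per 100 of Psmb6 in vehicle, 2.12 ± 0.259 in FSK4h and 4.03 ± 0.627 in FSK1D, with 6.48 ± 1.51 in FSK3D and 7.63 ± 1.48 in Rosi3D. Psmb8 per 100 of Psmb5 was 16.3 ± 1.32 in vehicle, 10.6 ± 2.88 in FSK4h and 11.2 ± 2.90 in FSK1D, with 14.8 ± 3.96 in FSK3D and 19 ± 2.74 in Rosi3D. For Psmb10 and Psmb9 the FSK4h libraries lay below and the Rosi3D libraries above all vehicle libraries. The FSK1D (12.2 to 16.4) and FSK3D libraries (13.9 to 16.4) also lay below vehicle (18.0 to 20.1) for Psmb10, but overlapped it for Psmb9. Both ratios are uncertain without strand, because exons of Psmb7 overlap Nek6 and those of Psmb9 overlap Tap1. For Psmb8 the FSK4h and FSK1D libraries lay below all vehicle libraries, and those of FSK3D and Rosi3D overlapped them. Leukocytes are rich in the immunoproteasome. Their 10 listed markers summed to between 4.57 and 5.06 CPM in vehicle, 9.83 and 11.6 in FSK4h, 10.4 and 11.4 in FSK1D, 5.26 and 6.10 in FSK3D and 3.00 and 4.56 in Rosi3D. Cd14, Csf1r and Cd68 were the 3 that passed the filter on low counts and made up most of each sum. Of these, Cd14 and Csf1r were called higher than in vehicle in FSK4h and FSK1D, Csf1r higher in FSK3D and Cd14 lower in Rosi3D. Itgax, too rare to be tested, went from a mean of 0.021 CPM in vehicle to 0.296 in Rosi3D. Ptprc, the pan-leukocyte marker and also not tested, had 12 counts over all libraries and 0 in FSK1D and FSK3D. The part of these cells in the immunoproteasome values was not tested.

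Of the 15 listed genes of MHC class I presentation, which use the peptides of the immunoproteasome, 6 were lower and 2 higher in FSK4h (9 and 2 with library size alone), 3 higher and 1 lower in FSK1D, 5 higher and 2 lower in FSK3D, and 8 higher and 2 lower in Rosi3D. Their medians were -0.28, -0.08, 0.15 and 0.31, against -0.03, -0.02, 0.01 and -0.01 over all tested genes. Of all tested genes 30.7% were lower in FSK4h, 19.5% higher in FSK1D, 25.9% higher in FSK3D and 28.6% higher in Rosi3D. The FSK4h count of falls and the FSK1D and FSK3D counts of rises thus lie near the background. With library size alone the share of all tested genes lower in FSK4h was larger too, as given above. The 5 higher in FSK3D became 2 without vehicle S3 and 3 without FSK3D S11, and the 1 lower in FSK1D became 0 to 3 without 1 library. In FSK4h Tap1 had the largest fall. Its values were 47.8, 39.7 and 40.1 CPM in vehicle and 19.4, 14.8 and 16.6 in FSK4h. Irf1, an interferon-regulated transcription factor, fell by 0.89 on the log2 scale in FSK4h, and Calr, a chaperone of class I assembly, rose by 0.41. In Rosi3D Pdia3, which helps load class I molecules, had the largest fall (-0.98). In FSK3D H2-K1 rose most (0.73). In FSK1D B2m was the gene called lower (-0.53), a call lost without vehicle S1, vehicle S3, FSK1D S8 or FSK1D S9 (adjusted p of up to 0.0790), and Calr rose most (0.49).

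**Figure D4:**
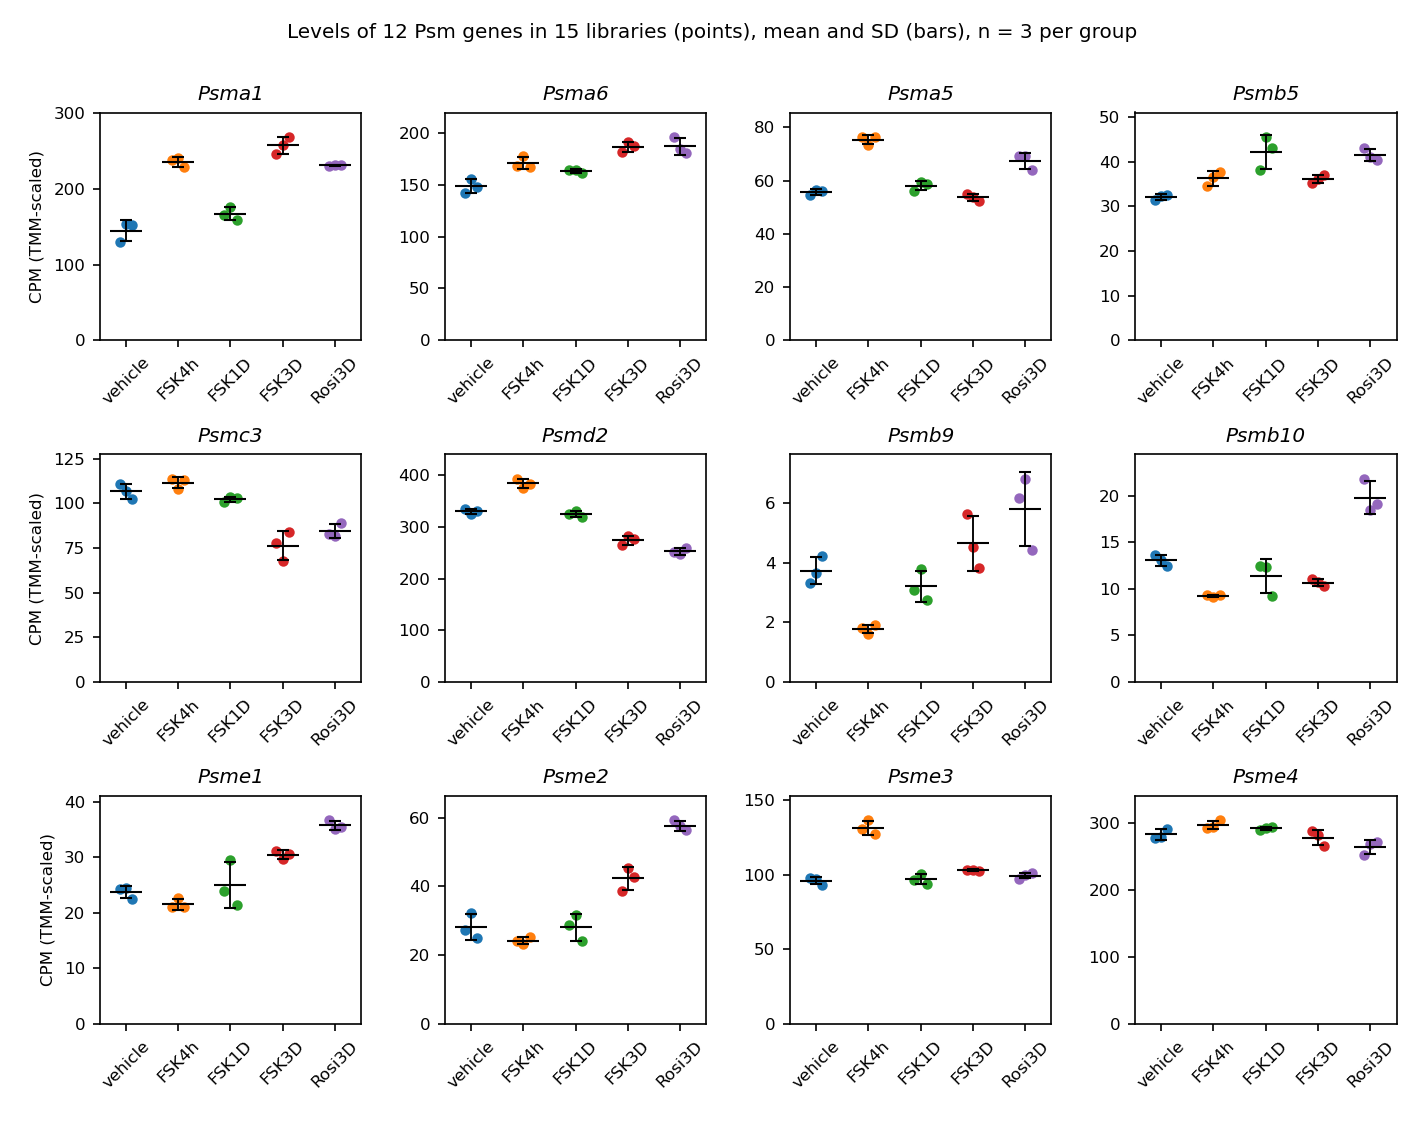
Levels (CPM after TMM scaling, y axes from 0) of 12 genes in the 15 libraries (points), with the mean and SD of each group of 3. Psma1 lies above vehicle in all treatments, Psmc3 and Psmd2 below it in FSK3D and Rosi3D, Psmb9 and Psmb10 below it in FSK4h, and Psme2 rises from about 28.2 CPM in vehicle to 57.7 in Rosi3D.

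Of the activators, the interferon-inducible PA28 pair rose at 3 days. Psme2 (PA28 beta) was at 27.4, 32.2 and 24.9 CPM in vehicle, at 38.6, 45.4 and 42.8 in FSK3D and at 59.2, 57.4 and 56.3 in Rosi3D. The 3 groups did not overlap, and the rises were 0.58 ± 0.088 (adjusted p = 2.08e-06) and 1.03 ± 0.086 (1.12e-11). The Rosi3D value was the only rise of a member past 2-fold against vehicle. In FSK4h Psme2 was called lower (-0.22 ± 0.090, adjusted p = 0.0356), a call lost without any 1 of 5 of the 6 libraries, all but vehicle S3 (adjusted p of up to 0.375) and with RLE scaling (adjusted p = 0.0585), and the libraries overlapped. Its partner Psme1 (PA28 alpha) lies near it (14:55578123-55581529, plus strand, against 14:55587441-55591113, minus strand). Psme1 was at 24.3, 24.5 and 22.5 CPM in vehicle, at 31.2, 29.7 and 30.6 in FSK3D and at 36.7, 35.2 and 35.4 in Rosi3D, again with no overlap (0.36 ± 0.084 and 0.59 ± 0.082). Psme1 stood at 85.0 ± 7.91 counts per 100 of Psme2 in vehicle, 72.6 ± 7.78 in FSK3D and 62.1 ± 0.784 in Rosi3D. FSK3D was lower than Rosi3D in both, by 0.45 on the log2 scale for Psme2 and 0.23 for Psme1. The Psme1 call was lost without FSK3D S11 or Rosi3D S13 (adjusted p of up to 0.0831).

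Psme2b, a near copy of Psme2 on chromosome 11, had 320 counts against 15951 for Psme2, and reads of the copies could be split in counting. It was not called against vehicle in any treatment, with values from -0.76 ± 0.45 to 0.69 ± 0.39. Psme3 (PA28 gamma, the nuclear form) followed another course. It was at 98.0, 97.1 and 93.3 CPM in vehicle and at 131, 137 and 128 in FSK4h, with no overlap (0.45 ± 0.046, adjusted p = 2.53e-10), and it was back at 97.0 ± 3.41 in FSK1D. It was not called in FSK1D (0.01), FSK3D (0.10) or Rosi3D (0.05). Psme4 (PA200), at 283 ± 7.63 CPM in vehicle, was called in Rosi3D alone (-0.10 ± 0.043, adjusted p = 0.049), and leaving out any 1 of the 6 libraries ended that call (adjusted p of up to 0.364). Psmf1 (PI31), at 32.3 ± 1.50 CPM in vehicle, was not called in any treatment, with values from -0.01 to 0.09.

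The assembly factors were mostly not called with TMM scaling, but with library size alone the 3 chaperones of the 19S base and 1 of the 4 of the 20S core were lower in FSK4h. Of the 4 chaperones of the 20S alpha ring, Psmg1 rose in Rosi3D from 19.5 ± 0.539 to 23 ± 0.606 CPM (0.24 ± 0.085, adjusted p = 0.0142). Psmg2, Psmg3 and Psmg4 were not called against vehicle, with SE of up to 0.21 for Psmg4, so that small changes in the rarer ones were not detectable at this depth. Of the chaperones of the 19S base, Psmd5 fell in FSK3D (-0.21 ± 0.055) and Rosi3D (-0.28 ± 0.055), from 79.5 ± 1.09 CPM in vehicle to 68.5 ± 4.69 and 65.4 ± 2.86. Psmd9 fell in FSK3D (-0.19 ± 0.071, adjusted p = 0.0258), a call lost without vehicle S1, vehicle S2, FSK3D S10 or FSK3D S11 (adjusted p of up to 0.140). Psmd10 (gankyrin), at 12.5 ± 1.21 CPM in vehicle, was not called. Psmc3ip rose in FSK1D (0.49 ± 0.14), with 6.42, 5.28 and 5.76 CPM in vehicle and 9.28, 8.25 and 6.97 in FSK1D, and fell to 4.10, 3.90 and 4.01 in Rosi3D (-0.54 ± 0.15). It shares 385 of its 972 exon bases with Mlx on the other strand, a gene with 23755 counts against its own 2551.

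Over the 4 comparisons with vehicle, which share the vehicle libraries, 8 of the 48 members were never called. They were Psmb1, Psmd13, Psmd10, Psmf1, Psme2b, Psmg2, Psmg3 and Psmg4. Called in all 4 were Psma1, Psma6, Psmb5, Psmb4 and Psmc4, of which Psma1, Psma6 and Psmb5 were higher each time, while Psmb4 and Psmc4 were higher in FSK4h and FSK1D and lower in FSK3D and Rosi3D. Over the forskolin times 7 members were higher in FSK4h, not called in FSK1D and lower in FSK3D (Psmd1, Psmd2, Psmd3, Psmd7, Psmd11, Psmc2 and Psma7), and 14 were called in FSK4h alone, 12 higher and 2 lower (Psmb8 and Psmb9). Of all tested genes 14.3% were never called against vehicle and 17.1% were called in all 4, 3.65% higher each time, so the first 2 counts of members (16.7% and 10.4%) lie near or under the background. The forskolin patterns held 4.33% of all tested genes for higher, not called and lower (14.6% of members), 6.23% for higher in FSK4h alone (25% of members) and 8.91% for lower in FSK4h alone (4.17% of members). These patterns rest on the TMM calls in FSK4h.

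Genes of the proteasome pathway outside the name were listed with earlier results known. Of 17 tested partners 13 were higher and 0 lower in FSK4h, 0 higher and 4 lower in FSK1D, 5 and 5 in FSK3D, and 7 and 5 in Rosi3D. The shares of all tested genes, higher and lower, were 28.4% and 30.7% in FSK4h, 19.5% and 20.7% in FSK1D, 25.9% and 27.0% in FSK3D and 28.6% and 32.0% in Rosi3D, and the FSK4h count of partners called higher was 76.5%. The 4 lower in FSK1D became 0 without FSK1D S7, 1 without vehicle S1, vehicle S3 or FSK1D S8, and 2 without vehicle S2. The 0 higher there became 1 without vehicle S2 or vehicle S3 and 2 without FSK1D S9. That FSK4h count was 6 higher and 3 lower with library size alone. Pomp, which matures the 20S core, rose in FSK4h (0.20 ± 0.061) and was not called in the other treatments. Adrm1, a ubiquitin receptor of the base, rose in FSK4h (0.32 ± 0.075) and fell in FSK3D (-0.22 ± 0.078), the fall being lost without vehicle S1 or FSK3D S12 (adjusted p of up to 0.103). Neither rise in FSK4h was called with library size alone. Usp14, a deubiquitinase bound to the base, was at 146, 151 and 159 CPM in vehicle, 197, 185 and 201 in FSK4h and 124, 123 and 125 in FSK3D. Usp14 rose by 0.35 in FSK4h and fell in FSK1D (-0.12), FSK3D (-0.29) and Rosi3D (-0.20), though the call in FSK1D was lost on leaving out any 1 of the 6 libraries (adjusted p of up to 0.346). Uchl5, the other deubiquitinase of the base, fell in Rosi3D (-0.25), a call lost without vehicle S3 or Rosi3D S13 (adjusted p of up to 0.266). Shfm1, which encodes the small lid subunit Sem1, fell in FSK1D (-0.28), a call lost without FSK1D S7 (adjusted p = 0.126). The largest rises were those of Zfand2a in FSK4h (0.64) and of Ubqln1, a shuttle for ubiquitinated proteins, in Rosi3D (0.80) and FSK3D (0.48). The largest falls were those of Akirin2 in FSK3D (-0.32) and Ubqln2 in Rosi3D (-0.44). Of 6 ubiquitin genes 5 were higher and 0 lower in FSK4h, 1 and 3 in FSK1D, 1 and 3 in FSK3D and 2 and 4 in Rosi3D, with 2 and 0 in FSK4h by library size alone. In Rosi3D Ubb rose by 0.65 and Rps27a fell by 0.35 on the log2 scale.

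Nfe2l1, the regulator of subunit genes named above, was lower than in vehicle in FSK4h and FSK1D and higher after 3 days. It was at 337, 337 and 331 CPM in vehicle, 287, 278 and 291 in FSK4h, 290, 296 and 285 in FSK1D, 441, 405 and 466 in FSK3D and 534, 539 and 553 in Rosi3D. The groups did not overlap vehicle (-0.23 ± 0.045, -0.21 ± 0.045, 0.39 ± 0.045 and 0.70 ± 0.045, all called, also with library size alone). Nfe2l2, its relative in the oxidative stress response, rose in FSK4h (0.58 ± 0.051), FSK1D (0.35 ± 0.051) and FSK3D (0.39 ± 0.051) and was at 0.01 ± 0.051 in Rosi3D. Ddi2, the protease that activates Nfe2l1, rose in FSK4h (0.75 ± 0.079) and FSK1D (0.33 ± 0.081). Of the 14 tested regulators 11 were higher and 2 lower in FSK4h (6 and 2 with library size alone), 6 and 1 in FSK1D, 6 and 3 in FSK3D and 6 and 4 in Rosi3D, beside the shares of all tested genes given with the partners. The 4 lower in Rosi3D became 1 without vehicle S1 and 2 without vehicle S3 or Rosi3D S14, and the 1 lower in FSK1D became 2 without FSK1D S7. The largest rise was that of Maff, a small Maf partner of both factors, in FSK4h (2.44 ± 0.097). Stat3 had the largest rise in FSK1D (1.16) and the largest fall in Rosi3D (-0.56). These are RNA levels, and Nfe2l1 is known to be controlled at the protein level as well.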

How the data were processed

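Total RNA of 15 libraries (5 groups of 3) was sequenced after ribosomal depletion. The deposited values are raw gene counts in whole numbers, which the authors did not normalize. The submitters' processing notes name fastp, STAR, featureCounts and the builds GRCm38 and mm10. Versions, annotation and the handling of strand and read pairs: not given in the sources used here. In every library fewer genes had a count of 1 (407 to 539) than of 2 (721 to 907).

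Columns were assigned to groups by name. Their running numbers are not the replicate numbers of the labels. Counts were filtered (filterByExpr, 14421 of 24421 genes), scaled by TMM and tested in R 4.3.3 with edgeR 4.0.16 (robust quasi-likelihood fit, 1 mean per group, 10 residual degrees of freedom, two-sided, Benjamini-Hochberg over all tested genes, called under 0.05). The script was tested on simulated data. The SE is the log2 fold change divided by the root of F. The common biological coefficient of variation was 5.97%. RPKM used the deposited gene lengths. Positions are from GENCODE vM21, and all 48 members matched. Exons of 10 members overlap another gene of the table, so their reads are uncertain without strand.

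Members, lists and alternatives were chosen with earlier results of these data known. The text names the catalytic subunits, activators, inhibitor and assembly chaperones, in each comparison with vehicle the 5 largest called rises and falls, and called members that went against their subgroup. Of the genes outside the name, 1 that the rule would name is not reported here. Values of Psmd14, Psmd1, Psmd3, Psmd7, Psmd11, Psmc1, Psma2, Psma3 and Psma4 and the ratio without Psma1 and Psma6 were added after the values were seen. Alternatives were RLE and library-size scaling, no filter on low counts, fits to the 2 groups compared, DESeq2 1.42.0 and leaving out each library.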

Additional observations from a re-analysis of the deposited data

Results flagged for a closer look

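Several members were called in opposite directions against vehicle in 2 treatments, with the difference between those treatments itself called by edgeR. Higher after 4 hours and lower after 3 days of forskolin were Psmd1 (difference FSK3D against FSK4h -0.45), Psmd11 (-0.41), Psmd3 (-0.55), Psmd2 (-0.49), Psma7 (-0.39), Psmb4 (-0.40), Psmc2 (-0.60), Psmc4 (-0.63) and Psmd7 (-0.31). With library size alone each of these differences was called too, though of these 9 genes only Psmc4 was then called higher in FSK4h. Psme2 went the other way, lower at 4 hours and higher at 3 days (0.80). Higher after 1 day and lower after 3 days were Psmb4 (FSK3D against FSK1D -0.35) and Psmc4 (-0.48). Higher in Rosi3D and lower in FSK3D were Psma7 (FSK3D against Rosi3D -0.35) and Psmb10 (-0.90). Some of the calls against vehicle were lost in fits without 1 library, as given above. They were those of Psma7, Psmb10 and Psmb4 in FSK3D and of Psme2 and Psmd7 in FSK4h.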

How the results depend on the processing

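The 134 called values compared were those of named genes, both members and genes outside the name. Of these, 130 kept direction and call with RLE scaling and in fits to the 2 groups compared. The number was 129 with DESeq2 and also without a filter on low counts, and 119 with library size alone. Of 804 values from fits without 1 library, 705 kept their call and 99 lost it, and none turned. The values that turned were Psmb6 (-0.047) and Psmb5 (-0.017) in FSK4h against vehicle with library size alone. That scaling gave 7 members higher and 15 lower in FSK4h against vehicle, 3 lower in FSK1D against vehicle, 16 higher and 8 lower in FSK1D against FSK4h, and 10 higher and 19 lower in FSK3D against FSK4h. It does not adjust for the lower TMM factors of FSK4h. RLE scaling and DESeq2 each gave 2 members lower in FSK4h against vehicle, where 4 were called by edgeR with TMM.

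Without 1 library, members called lower in FSK4h against vehicle ranged from 2 to 3. In FSK3D against Rosi3D those higher ranged from 1 to 3 and those lower from 9 to 16. Members called higher ranged from 2 to 7 in FSK1D against FSK4h, from 3 to 6 in FSK3D against FSK1D and from 3 to 6 in FSK3D against FSK4h. The counts that moved by over 1.5 times did so without FSK1D S8 (2 higher against FSK4h), FSK1D S7, FSK4h S4 or FSK4h S5 (5 each), FSK1D S9 (3 higher in FSK3D), FSK4h S6 (3 higher in FSK3D), and FSK3D S12 or Rosi3D S13 (1 higher in FSK3D against Rosi3D). Without Rosi3D S13 the 15 lower in FSK3D against Rosi3D also became 9. The 4 lower in FSK4h against vehicle became 2 without vehicle S1, vehicle S2, FSK4h S5 or FSK4h S6. The cause was not tested. No paired analysis was possible because the columns carry running library numbers and not the replicate numbers of the labels. Depth limits the rarer members, Psme2b, Psmg4, Psmb9 and Psmb8.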
